A study of Mus musculus with 12 samples.

Results

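The Elovl genes encode the elongases of very-long-chain fatty acids, Elovl1 to Elovl7, and their RNA was followed here in white adipose tissue of mice in the cold. All probe sets whose annotation names 1 of these 7 genes alone were taken, of 18193 genes read in this way, which gave 19 of the 34945 probe sets that name 1 gene and are not array controls. A probe set is a group of oligonucleotides on the array that are read together, and some can match more than 1 transcript. Elovl1 had 4 probe sets, Elovl2 1, Elovl3 1, Elovl4 2, Elovl5 2, Elovl6 3 and Elovl7 6. A probe set was tested if its log2 signal was above 4 on at least 3 of the 12 arrays, and 10 of the 19 passed: 3 of Elovl1, 1 of Elovl3, 2 of Elovl5, 3 of Elovl6 and 1 of Elovl7. Over the whole array 22378 probe sets passed.

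The tissue came from male C57/BL6 mice labelled as 6 to 8 weeks old, which had been kept at 22 °C. Per the labels, 1 to 3 weeks at 18 °C preceded the move to 4 °C, where mice stayed for 1 week or 5 weeks, and 3 arrays were made of each cold group and of a control group at each time. Sample titles give 30 °C for the controls, source names give room temperature, and no label says whether the controls passed through 18 °C. Neither the fat depot nor whether the 3 arrays of a group are separate animals is stated, so a p-value here measures array-to-array spread only, and that spread may be technical. The arrays are numbered as in the titles, and their small number limits the precision.

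Elovl proteins sit in the endoplasmic reticulum and catalyse the first step of each elongation cycle, the condensation of a fatty acyl-CoA with malonyl-CoA. The cycle is completed by a reductase (Hsd17b12), a dehydratase (Hacd1 to Hacd4) and a further reductase (Tecr), and desaturases insert double bonds before or after elongation. The members differ in the acyl-CoA they take: Elovl1, Elovl3, Elovl6 and Elovl7 extend saturated and monounsaturated chains, Elovl2 and Elovl5 polyunsaturated ones, and Elovl4 the very long chains of retina, brain and skin. Elovl3 was first described as a cold-induced transcript of brown fat, the tissue that burns lipid for heat.

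The promoters of Elovl1, Elovl5 and Elovl6 are shown because probe sets of these genes changed in the cold, downward for Elovl1 and upward for the other two. The RefSeq table (GRCm38.p6) held 8 promoter windows for 6 of the 7 genes, and Elovl3 had no entry. Each sequence is the 250 bases before the annotated start, 5′ to 3′ on the coding strand, with matches to a searched motif in capitals.
Elovl1 promoter, chr4:118427843-118428092, + strand: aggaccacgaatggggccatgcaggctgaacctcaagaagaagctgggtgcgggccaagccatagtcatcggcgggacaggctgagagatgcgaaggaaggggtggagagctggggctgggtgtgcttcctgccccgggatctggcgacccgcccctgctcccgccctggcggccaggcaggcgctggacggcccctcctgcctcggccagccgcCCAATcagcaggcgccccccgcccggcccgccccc
Elovl5 promoter, chr9:77917115-77917364, + strand: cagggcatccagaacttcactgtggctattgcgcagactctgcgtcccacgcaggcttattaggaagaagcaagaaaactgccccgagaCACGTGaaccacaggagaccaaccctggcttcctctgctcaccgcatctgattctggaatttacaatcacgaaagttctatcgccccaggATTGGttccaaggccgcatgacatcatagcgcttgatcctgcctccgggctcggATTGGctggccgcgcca
Elovl6 promoter, chr3:129532136-129532385, + strand: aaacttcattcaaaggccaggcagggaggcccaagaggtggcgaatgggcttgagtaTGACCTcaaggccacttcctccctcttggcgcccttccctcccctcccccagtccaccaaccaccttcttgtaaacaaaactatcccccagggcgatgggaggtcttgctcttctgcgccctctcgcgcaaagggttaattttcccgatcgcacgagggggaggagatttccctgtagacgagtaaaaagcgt

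Both strands of these windows were searched for the E-box CACGTG, the cyclic AMP response element TGACGTCA, a sterol response element TCACNCCAC, the nuclear receptor half-site AGGTCA and the CCAAT box; these motifs do not overlap one another in the printed windows. In the Elovl1 window the capitals mark a CCAAT box 35 to 31 bases before the start. The table has another Elovl1 window, chr4:118429451-118429700 on the + strand, with 58.0% GC, which held no CCAAT box and a half-site on the opposite strand 95 to 90 bases before its start. In the Elovl5 window they mark the E-box 161 to 156 bases before the start and CCAAT boxes on the opposite strand, written ATTGG, at 71 to 67 and 17 to 13 bases. The Elovl6 window held a half-site on the opposite strand, written TGACCT, 193 to 188 bases before the start. The first 250 bases of all 32851 promoter windows in the table held these motifs in 6.02% (E-box), 1.55% (cyclic AMP response element), 1.05% (sterol response element), 14.0% (half-site) and 33.8% (CCAAT box) of cases. The GC content was 72.0% for the printed Elovl1 window, 55.6% for Elovl5 and 56.4% for Elovl6, against a median of 52.4% over all windows. A match is a run of letters and not a measured site.

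The arrays were similar in overall level, with medians of 4.79 to 4.89 and a mean correlation with arrays of the same group of 0.992 to 0.998. Markers of adipocytes were high on every array: the 7 listed markers on the array alone averaged 13.2 to 13.6, Adipoq (adiponectin) lay between 14.6 and 14.8, and Fabp4 (a fatty acid carrier) between 15.3 and 15.8. All 9 brown or beige adipocyte markers rose in the cold at both times, with means of 7.41 to 8.34 on control arrays and 11.6 to 12.3 on cold arrays. Some arrays stood apart. The array carries control probe sets at both ends of Gapdh, and their 3′ minus 5′ difference, a measure of RNA integrity and labelling, was 3.00 and 3.12 on control arrays 2 and 3 at 1 week and 3.01 on cold array 3 at 5 weeks, and between -0.08 and 0.96 on the other 9. That of Actb was 1.84 to 2.80 on the 5-week cold arrays and 1.01 to 1.35 elsewhere. The mean of the 12 skeletal muscle markers, 11 of which passed the filter, was 9.70 on cold array 2 at 1 week and 8.14 to 8.42 on all control arrays at 5 weeks, against 4.40 to 5.35 on the other 8. Since tissue pieces were measured in bulk, fewer cells of a type and less RNA per cell cannot be told apart.

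Cold was followed by higher Elovl3, Elovl5 and Elovl6 signal and lower Elovl1 signal, though not on every probe set of Elovl1, Elovl5 and Elovl6 at both times. At 1 week 6 of the 10 tested probe sets rose and 2 fell at an adjusted p under 0.05 (limma, Benjamini-Hochberg over all 22378 probe sets), where 18.5% of all tested probe sets rose, 27.2% fell and 45.7% were called in all. At 5 weeks 4 rose and 3 fell, against 13.1% and 20% of all, or 33% together. Groups did not overlap for 6 higher and 2 lower of the 10 at 1 week and for 5 higher and 3 lower at 5 weeks, where 27.8% and 30% of all tested probe sets did so at 1 week and 26.3% and 30% at 5 weeks. The median log2 difference of the 10, cold minus control, was 0.67 at 1 week and 0.18 at 5 weeks, beside -0.04 for all tested probe sets at both times. Several probe sets read the same gene, so the 10 are readings of 5 genes. The rises at both times include Elovl3, which passed the filter only through its cold arrays. Without control arrays 2 and 3 at 1 week, the calls at 1 week numbered 6 rather than 8, and with the 3 control arrays at 5 weeks, which correlated most closely (0.997 to 0.998), counted as 1 sample those at 5 weeks numbered 2 rather than 7.

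**Figure D1:**
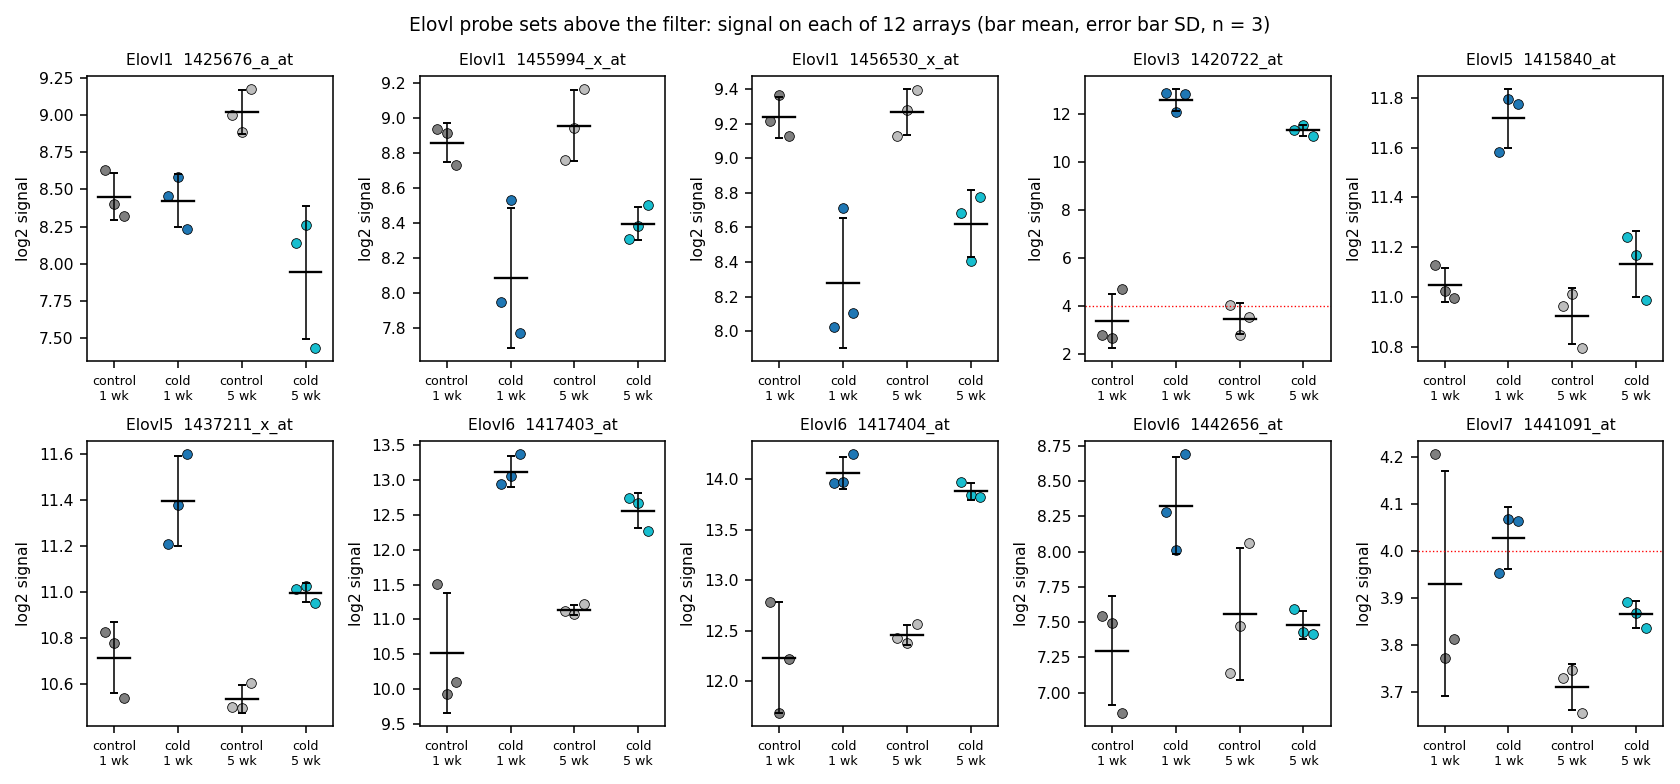
Log2 signal of the 10 tested Elovl probe sets (y axis, log2 units; each panel has its own range) on the 12 arrays in the 4 groups (x axis). Points are arrays, bars mark group means and error bars the SD over 3 arrays. Elovl3 lies at 2.67 to 4.70 on control arrays and 11.10 to 12.87 on cold arrays.

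Elovl3, which extends saturated and monounsaturated acyl chains, was among the largest rises of the array: with all signals below log2 4 set to 4, it ranked 1 of 22378 tested probe sets at 1 week and 2, after Ucp1, at 5 weeks. Its probe set 1420722_at read 2.79, 2.67 and 4.70 on the control arrays and 12.87, 12.08 and 12.84 on the cold arrays at 1 week. The 5-week values were 4.06, 2.79 and 3.56 on the control arrays and 11.34, 11.56 and 11.10 on the cold arrays. Every cold array lay far above every control array, and the controls sat at the level of dim probe sets, with 1 of 3 above log2 4 at each time. The probe set passed the filter through its cold arrays, so it could only pass if the groups differed. With control signals below log2 4 set to 4, cold Elovl3 signal was at least 330-fold higher at 1 week, a log2 difference of at least 8.36 (adjusted p of the fit 1.15e-06 by limma). At 5 weeks it was at least 159-fold higher, or 7.31 on the log2 scale (adjusted p of the fit 3.04e-06 by limma). The bound at 1 week was 523-fold with the floor at log2 3 and 194-fold with it at 5, and at 5 weeks 222-fold and 80.5-fold.

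Among cold arrays Elovl3 was lower at 5 weeks than at 1 week, and the groups did not overlap, as was so for 21.9% of all tested probe sets in this direction and 20.9% in the other. That difference was -1.27 (SE 0.49, adjusted p = 0.0775 by limma) and did not pass the test. The change of the cold effect from 1 to 5 weeks rests on controls at the level of dim probe sets; with signals below log2 4 set to 4 it was -1.05, and no test of it is given. The calls against controls were kept with the Gapdh signal as a covariate (adjusted p = 1.01e-04 at 1 week and 3.25e-05 at 5 weeks by limma) and with the muscle marker mean as one (5.36e-06 and 5.87e-04). Because the probe set passed the filter through its cold arrays, these calls are not independent evidence of a difference.

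Elovl6, which extends palmitate to stearate and is a target of the lipogenic factor Srebf1, rose in the cold on its brightest probe sets at both times. Probe set 1417404_at read 12.79, 11.69 and 12.23 on the control arrays and 13.97, 13.97 and 14.25 on the cold arrays at 1 week. Its 5-week values were 12.43, 12.38 and 12.57 on the control arrays and 13.98, 13.85 and 13.82 on the cold arrays. All cold arrays were above all control arrays at both times, and the 1-week controls were the most spread. The log2 difference was 1.83 (SE 0.22, adjusted p = 9.82e-05 by limma), or 3.55-fold, at 1 week and 1.42 (SE 0.22, adjusted p = 6.67e-04), or 2.68-fold, at 5 weeks.

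Probe set 1417403_at moved the same way. It read 11.51, 9.92 and 10.10 on the control arrays and 12.94, 13.06 and 13.37 on the cold arrays at 1 week. The corresponding values at 5 weeks were 11.12, 11.08 and 11.22 in controls and 12.74, 12.67 and 12.27 in the cold. The groups did not overlap at either time. Its log2 difference was 2.61 (SE 0.33, adjusted p = 1.48e-04 by limma), or 6.12-fold, at 1 week and 1.42 (SE 0.33, adjusted p = 0.00769), or 2.68-fold, at 5 weeks. Control arrays 2 and 3 at 1 week, the pair with high Gapdh 3′ minus 5′ signal, were lower than control array 1 on this probe set by more than the whole range of the 5-week controls. Without that pair the 1-week differences were 1.62 (adjusted p = 0.00231) for 1417403_at and 1.27 (adjusted p = 0.00143) for 1417404_at, and with the Gapdh signal as a covariate they were 1.75 (adjusted p = 0.00529) and 1.43 (adjusted p = 0.00644). The 5-week calls were lost with the Actb signal as a covariate, at 2.11 (adjusted p = 0.108) and 1.68 (adjusted p = 0.0702), and that of 1417403_at also with the muscle marker mean (1.33, adjusted p = 0.118) or the 5-week controls counted as 1 (adjusted p = 0.127).

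The third Elovl6 probe set, 1442656_at, rose at 1 week and gave no call at 5 weeks. It read 7.54, 7.49 and 6.85 on the control arrays and 8.28, 8.01 and 8.69 on the cold arrays at 1 week, without overlap. The values at 5 weeks were 7.14, 7.47 and 8.06 in controls and 7.59, 7.43 and 7.42 in the cold, with the cold arrays inside the range of the controls. The difference was 1.03 (SE 0.25, adjusted p = 0.00718 by limma) at 1 week and -0.08 (SE 0.25, 95% CI -0.64 to 0.48, adjusted p = 0.837) at 5 weeks. The 1-week call was lost with the Gapdh covariate (0.77, adjusted p = 0.162) and without control arrays 2 and 3 (0.78, adjusted p = 0.143). The change of the cold effect from 1 to 5 weeks was -0.40 (adjusted p = 0.376) for 1417404_at, -1.19 (adjusted p = 0.0964) for 1417403_at and -1.11 (adjusted p = 0.0513) for 1442656_at. For 1417403_at and 1417404_at this change took the opposite sign with the Gapdh covariate, at 0.21 and 0.24.

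**Figure D2:**
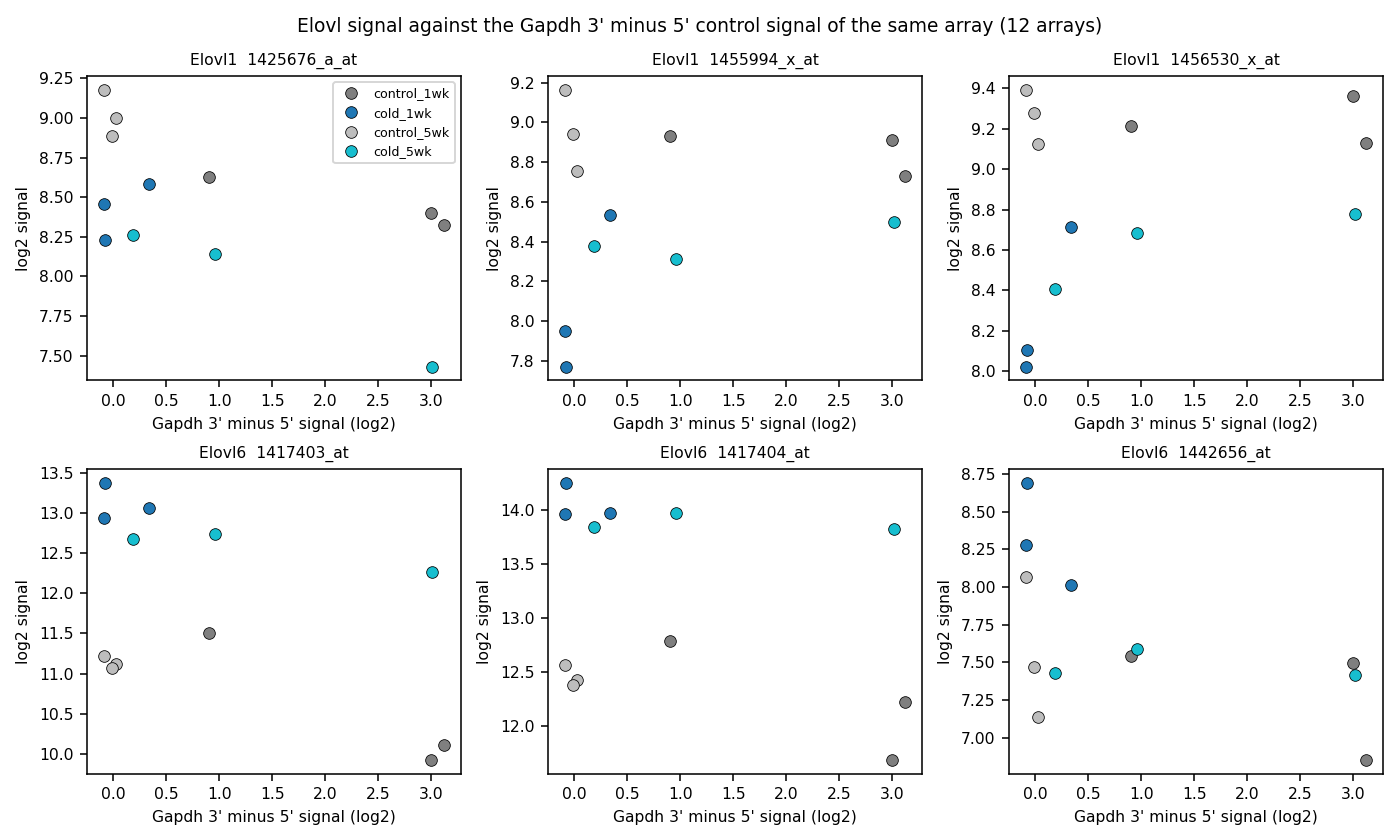
Log2 signal of Elovl probe sets (y axis) against the Gapdh 3′ minus 5′ control signal of the same array (x axis, log2 units), coloured by group, 1 point per array. The arrays at 3.00 and 3.12 are 1-week controls and the array at 3.01 is a 5-week cold array.

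Elovl5, which extends polyunsaturated fatty acids, rose in the cold at 1 week on both of its probe sets. Probe set 1415840_at read 11.13, 11.02 and 11.00 on the control arrays and 11.58, 11.80 and 11.77 on the cold arrays at 1 week. At 5 weeks it read 10.96, 11.01 and 10.79 in controls and 11.24, 11.17 and 10.99 in the cold. The groups were apart at 1 week and overlapped at 5 weeks through cold array 3. Its difference was 0.67 (SE 0.10, adjusted p = 4.29e-04 by limma), or 1.59-fold, at 1 week and 0.21 (SE 0.10, 95% CI -0.015 to 0.43, adjusted p = 0.140) at 5 weeks.

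Probe set 1437211_x_at, whose suffix marks probes that can also match other transcripts, read 10.83, 10.78 and 10.54 on the control arrays and 11.21, 11.38 and 11.60 on the cold arrays at 1 week. Values at 5 weeks were 10.50, 10.49 and 10.60 in controls and 11.01, 11.03 and 10.95 in the cold. Its groups did not overlap at either time. The difference was 0.68 (SE 0.11, adjusted p = 7.19e-04 by limma) at 1 week and 0.46 (SE 0.11, adjusted p = 0.00917), or 1.38-fold, at 5 weeks. With the Gapdh covariate both probe sets kept their 1-week calls, at 0.53 (adjusted p = 0.0238) and 0.56 (adjusted p = 0.0334). The 5-week call of 1437211_x_at was lost with the muscle marker mean (0.46, adjusted p = 0.102) or the Actb signal (0.63, adjusted p = 0.154) as a covariate, and with the 5-week controls counted as 1 (adjusted p = 0.135).

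Elovl5 was the member whose cold arrays fell from 1 to 5 weeks on both probe sets. In the cold, 5 weeks minus 1 week was -0.59 (SE 0.10, adjusted p = 0.00274 by limma) for 1415840_at and -0.40 (SE 0.11, adjusted p = 0.0232) for 1437211_x_at. With Elovl6 1442656_at at -0.85 (SE 0.25, adjusted p = 0.0300), these made 3 of the 10 tested probe sets lower and 0 higher, where 13.9% of all tested probe sets were lower, 14.5% higher and 28.4% called in all. The call of 1442656_at was lost when any of 5 of the 6 cold arrays was left out (adjusted p up to 0.101), and that of 1437211_x_at without cold array 3 at 1 week (adjusted p = 0.0748) or at 5 weeks (adjusted p = 0.0731). With any cold array left out 1 to 5 of the 10 were called, 2 of the 5 being higher without cold array 2 at 1 week, and 1 was called with the Gapdh and 0 with the Actb covariate. In controls 0 of the 10 were called by limma between the times, where 2.1% of all were higher, 1.26% lower and 3.36% called, and 1 had an unadjusted p under 0.05 (Elovl1 1425676_a_at, 0.57 higher at 5 weeks, adjusted p = 0.141, without overlap, as 12.9% of all were higher and 17.5% lower). The cold effect itself was smaller at 5 weeks than at 1 week for 1415840_at, by -0.46 (SE 0.14, adjusted p = 0.0449), and by -0.22 (adjusted p = 0.362), not called, for 1437211_x_at. The call for 1415840_at was lost when any of 8 of the 12 arrays was left out, with adjusted p up to 0.107.

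Elovl1 is a broadly expressed elongase of saturated and monounsaturated chains that supplies acyl groups to sphingolipids. In the cold 2 of its 3 tested probe sets fell at 1 week and all 3 at 5 weeks. Both that fell at 1 week carry the suffix of probes that can also match other transcripts. Elovl1 probe set 1456530_x_at read 9.21, 9.36 and 9.13 on the control arrays and 8.02, 8.71 and 8.10 on the cold arrays at 1 week. At 5 weeks it read 9.13, 9.28 and 9.39 in controls and 8.68, 8.41 and 8.78 in the cold. The cold arrays were below the controls at both times, and the highest 1-week cold array was array 2, the one with high muscle markers. The difference was -0.96 (SE 0.17, adjusted p = 0.00127 by limma) at 1 week and -0.64 (SE 0.17, adjusted p = 0.0157) at 5 weeks.

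Probe set 1455994_x_at followed the same course over the arrays, with a correlation of 0.97 to 1456530_x_at over 12 arrays. It read 8.93, 8.91 and 8.73 on the control arrays and 7.95, 8.53 and 7.77 on the cold arrays at 1 week, and at 5 weeks 8.76, 8.94 and 9.16 in controls and 8.31, 8.38 and 8.50 in the cold. Again no cold array reached a control array of its time. The difference was -0.77 (SE 0.18, adjusted p = 0.00479 by limma) at 1 week and -0.56 (SE 0.18, adjusted p = 0.0331) at 5 weeks. The 5-week call was lost when any of 5 of the 6 arrays was left out, at -0.61 to -0.45, and that of 1456530_x_at without control array 3 (-0.58, adjusted p = 0.0565) or cold array 2 (-0.54, adjusted p = 0.0577).

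The third tested Elovl1 probe set, 1425676_a_at, gave no call at 1 week and fell at 5 weeks. It read 8.63, 8.40 and 8.32 on the control arrays and 8.46, 8.58 and 8.23 on the cold arrays at 1 week, with the groups intermixed. At 5 weeks it read 9.00, 8.89 and 9.18 in controls and 8.14, 8.26 and 7.43 in the cold, without overlap and lowest on cold array 3. The difference was -0.025 (SE 0.20, 95% CI -0.46 to 0.41, adjusted p = 0.924 by limma) at 1 week and -1.08 (SE 0.20, adjusted p = 0.00192), or 2.11-fold lower, at 5 weeks. Its sign at 1 week was positive after centring each array on its median (0.12) and after quantile normalization (0.14). The cold effect at 5 weeks minus that at 1 week was -1.05 (SE 0.28, adjusted p = 0.0244) on this probe set, and 0.22 (adjusted p = 0.577) and 0.31 (adjusted p = 0.395) on 1455994_x_at and 1456530_x_at. The -1.05 and the Elovl5 value above were the 2 of 10 called for a changed cold effect, both lower, where 10.4% of all tested probe sets were called lower, 9.84% higher and 20.3% in all. Both calls were lost with the Gapdh signal, the Actb signal or the muscle marker mean as a covariate. The Elovl1 call was also lost without any of 4 arrays (control arrays 2 or 3 at 1 week, control arrays 1 or 3 at 5 weeks), with adjusted p up to 0.0574. With the Actb covariate the 5-week fall of 1425676_a_at was -0.29 (adjusted p = 0.644).

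Markers of some other cell types fell in the cold, as Elovl1 did. Of all genes tested 30.7% fell at 1 week and 20.2% at 5 weeks. All 8 lymphocyte markers on the array alone fell in the cold at both times, with array means of 9.58 to 10.3 and 8.82 to 9.37 at 1 week and 10.1 to 10.1 and 8.95 to 9.05 at 5 weeks for control and cold. Of 9 macrophage markers 6 fell at 1 week and 8 at 5 weeks, with means of 10.4 to 10.7 and 10.1 to 10.2, then 10.9 to 11.0 and 9.65 to 10.1. Of 6 fibroblast and progenitor markers 5 fell at both times, with means of 12.6 to 12.7 and 11.8 to 12.1, then 12.1 to 12.3 and 11.6 to 11.9. The macrophage marker C1qa went the other way at 1 week, with means of 9.31 in controls and 10.8 in the cold, without a call. Of the 11 muscle markers that passed, 1 rose and 0 fell at 1 week, and 0 rose and 7 fell at 5 weeks. Of 6 endothelial markers 1 rose and 1 fell at 1 week, and 0 rose and 1 fell at 5 weeks. Of 3 nerve and glia markers that passed, 1 rose at 1 week and 0 were called at 5 weeks. With the muscle marker mean as a covariate the 5-week differences of Elovl1 were -0.05 (adjusted p = 0.885) for 1455994_x_at, -0.14 (adjusted p = 0.616) for 1456530_x_at and -0.89 (adjusted p = 0.0726) for 1425676_a_at. With the Gapdh covariate the 1-week differences were -0.71 (adjusted p = 0.0853) for 1455994_x_at and -0.75 (adjusted p = 0.0553) for 1456530_x_at. The part of the lymphocyte, macrophage and fibroblast markers in the Elovl1 result was not tested.

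**Figure D3:**
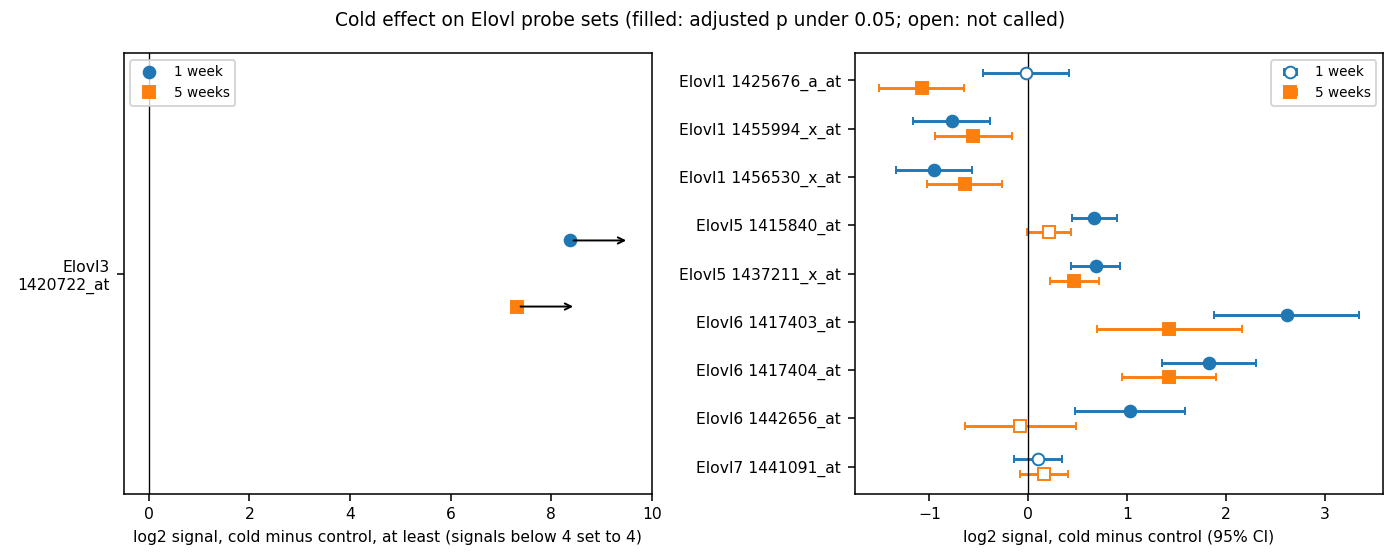
Log2 difference, cold minus control (x axis), of the 10 tested Elovl probe sets (y axis) at 1 week and 5 weeks. Elovl3 has its own axis and is drawn at its lower bounds of 8.36 and 7.31, with arrows toward higher values; the other 9 have 95% confidence intervals and lie between -1.08 and 2.61. Filled symbols passed the adjusted p threshold of 0.05 and open symbols did not.

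Elovl7, which also extends saturated chains, was dim and was not called in any comparison. Its probe set 1441091_at read 4.21, 3.77 and 3.81 on the control arrays and 3.95, 4.07 and 4.06 on the cold arrays at 1 week. Its values at 5 weeks were 3.73, 3.75 and 3.65 in controls and 3.89, 3.87 and 3.84 in the cold. The groups overlapped at 1 week, and at 5 weeks the cold arrays were all slightly higher, both near the floor of log2 4. The difference was 0.10 (SE 0.11, adjusted p = 0.490 by limma) at 1 week and 0.16 (SE 0.11, adjusted p = 0.311) at 5 weeks; at 1 week it was negative with quantile normalization (-0.02), with the Gapdh covariate (-0.10) and without control arrays 2 and 3 (-0.18). At 5 weeks it was called after centring each array on its median (0.33, adjusted p = 0.0363).

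The other 9 probe sets did not pass the filter, and their signals lay between 1.92 and 4.00 on all arrays. They were 5 of Elovl7, at 2.53 to 4.00, Elovl1 1443820_x_at, at 3.12 to 3.60, and every probe set of Elovl2 and Elovl4. Elovl2, which makes long polyunsaturated fatty acids and is best known from liver and testis, read 2.63 to 2.91. Elovl4 read 2.50 to 3.46 on 1424306_at and 1.92 to 2.10 on 1451308_at. These signals are at the level of dim probe sets and give only an upper bound on the RNA, so no difference is reported for them.

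Other enzymes of the elongation cycle were described from a list of 7, of which 6 passed the filter. Each gene is given by its brightest probe set, and the quantity is the log2 difference, cold minus control. At 1 week 3 rose and 1 fell, and at 5 weeks 2 rose and 1 fell; of all 12855 genes tested 17.1% rose and 30.7% fell at 1 week, and 14.2% and 20.2% at 5 weeks. Hsd17b12, the reductase of the second step, rose by 1.24 (adjusted p = 5.52e-05 by limma) at 1 week and 1.11 (adjusted p = 1.60e-04) at 5 weeks. Its other probe set, 1450010_at, gave 1.97 (adjusted p = 2.26e-04) at 1 week and 0.26 (adjusted p = 0.493) at 5 weeks. The dehydratase Hacd2 rose by 0.39 (adjusted p = 0.0488) and 0.74 (adjusted p = 0.00333), and Hacd4 fell, at -1.06 (adjusted p = 0.00166) and -1.13 (adjusted p = 0.00167). The dimmer Hacd2 probe set 1437329_at rose by 1.03 (adjusted p = 2.75e-04) and 0.85 (adjusted p = 0.00142). On 1449342_at, the brightest, the Hacd2 call at 1 week was lost when any of 4 of the 6 arrays was left out. Without control array 3 it was 0.26 (adjusted p = 0.183). It was also lost with the Gapdh (0.29, adjusted p = 0.374) or Actb (0.40, adjusted p = 0.0571) covariate. Quantile normalization (0.31, adjusted p = 0.129), no filter and the replicate block lost it too. The 5-week call was lost with the Actb (0.63, adjusted p = 0.288) or muscle (0.60, adjusted p = 0.0993) covariate.

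Tecr, the reductase of the last step, rose by 1.39 (adjusted p = 6.63e-04 by limma) at 1 week and gave 0.075 (adjusted p = 0.827) at 5 weeks. Its cold effect differed between the times by -1.32 (adjusted p = 0.0185). Its probe set 1429681_a_at read 12.13, 11.41 and 11.53 in controls and 12.91, 13.20 and 13.14 in the cold at 1 week, and 12.27, 12.29 and 12.24 in controls and 12.70, 12.51 and 11.82 in the cold at 5 weeks. The lowest of the 5-week cold arrays was array 3, and with the Gapdh covariate the 5-week difference was 0.47 (adjusted p = 0.0456). Hacd1 gave 0.096 and -0.058, and Hacd3 -0.30 and 0.091, with no call on the brightest probe set; Tecrl was below the filter. Other probe sets were called at 1 week, Hacd1 1456315_a_at at 0.33 (adjusted p = 0.0431 by limma) and Hacd3 1454698_at at -0.57 (adjusted p = 0.00224). With the Actb covariate the 5-week call of Hsd17b12 was lost at 0.98 (adjusted p = 0.0818), and without control arrays 2 and 3 the 1-week calls of Tecr (0.95, adjusted p = 0.0503) and Hacd4 (-0.95, adjusted p = 0.0614) were lost.

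Of the 8 listed desaturases 6 passed the filter. At 1 week 3 rose and 1 fell (50% and 16.7%, against 17.1% and 30.7% of all genes tested). At 5 weeks 0 rose and 1 fell (0% and 16.7%, against 14.2% and 20.2%). Scd1, which desaturates stearate to oleate, rose by 0.45 (adjusted p = 0.00128 by limma) at 1 week and gave 0.21 (adjusted p = 0.0777) at 5 weeks, from a level near the top of the array, at 15.15 to 15.72. Scd2 rose by 0.54 (adjusted p = 0.00158) at 1 week and gave 0.06 (adjusted p = 0.691) at 5 weeks. Fads2 and Fads1 insert double bonds into polyunsaturated chains, Fads2 before and Fads1 after the Elovl5 step. Fads1 fell at 1 week, at -0.90 (adjusted p = 0.00996), and gave -0.62 (adjusted p = 0.0655) at 5 weeks. Fads2 rose by 1.08 (adjusted p = 0.0385) at 1 week and gave -0.55 (adjusted p = 0.301) at 5 weeks. The Fads2 rise was 0.03 without control arrays 2 and 3 and 0.11 with the Gapdh covariate, and the Fads1 fall was kept in size but not in call, at -1.06 (adjusted p = 0.0755) without that pair. Without that pair the 1-week calls of Scd1 (0.37, adjusted p = 0.0605) and Scd2 (0.38, adjusted p = 0.0869) were lost too. Fads3 gave 0.16 at 1 week and fell at 5 weeks, at -0.85 (adjusted p = 0.0152). That call was lost with the Gapdh (-0.51, adjusted p = 0.0755), Actb (-0.33, adjusted p = 0.726) or muscle (-0.52, adjusted p = 0.316) covariate, without control array 2 (adjusted p = 0.0550) or cold array 3 (adjusted p = 0.0569), and with the 5-week controls counted as 1 (adjusted p = 0.171). Fads6 gave -0.34 and -0.91 with no call. Scd3 was below the filter, and Scd4 was not read alone by a probe set.

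Of 7 listed enzymes of malonyl-CoA and palmitate supply, all 7 rose at 1 week on their brightest probe sets. They include Mlycd, which breaks malonyl-CoA down. At 5 weeks 5 of the 7 rose and 0 fell. Of all genes tested 17.1% rose and 30.7% fell at 1 week, and 14.2% and 20.2% at 5 weeks. Acacb, the acetyl-CoA carboxylase at mitochondria, rose by 2.15 (adjusted p = 2.76e-05 by limma) and 1.91 (adjusted p = 7.46e-05). Mlycd rose by 1.84 (adjusted p = 5.00e-05) and 1.52 (adjusted p = 2.32e-04). Acly, which makes cytosolic acetyl-CoA, rose by 0.66 (adjusted p = 1.01e-04) and 0.61 (adjusted p = 2.50e-04). The 2 genes without a call at 5 weeks, named after their values were seen, were Fasn, the fatty acid synthase, at 0.28 (adjusted p = 0.0558), and Me1, the malic enzyme, at 0.32 (adjusted p = 0.283). Probe sets of some of these genes disagreed at 5 weeks: Me1 1416632_at was called higher (0.42, adjusted p = 0.0324 by limma), and 2 of the 5 genes that rose had another probe set that fell. These were Acaca, the cytosolic acetyl-CoA carboxylase, with 0.54 (adjusted p = 0.00685) on 1434185_at and -1.92 (adjusted p = 0.0468) on 1427595_at, and Acss2, which makes acetyl-CoA from acetate, with 0.49 (adjusted p = 0.0477) on 1422478_a_at and -0.85 (adjusted p = 0.0403) on 1446542_at.

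Of 14 genes listed under the use of very-long-chain acyl-CoA 8 passed. The list mixes acyl-CoA synthetases, transporters and ceramide synthases, and the chain length each takes was not measured. At 1 week 3 were up and 3 down (37.5% each, against 17.1% and 30.7% of all genes tested). At 5 weeks 2 were up and 1 down (25% and 12.5%, against 14.2% and 20.2%). These counts describe the list and not very-long-chain use as such. Slc27a2, an acyl-CoA synthetase of very long chains, rose by 3.55 (adjusted p = 7.23e-07 by limma) at 1 week. At 5 weeks its 3 controls were below log2 4, and with these set to 4 it was at least 21.5-fold higher, or 4.42 on the log2 scale (adjusted p of the fit 5.89e-08 by limma). Abcd3, a transporter of the peroxisome membrane, rose by 1.53 (adjusted p = 5.20e-06) and 1.66 (adjusted p = 4.33e-06). Among ceramide synthases, Cers6 fell at both times, at -1.41 (adjusted p = 1.37e-05) and -0.68 (adjusted p = 0.00162). The 5-week call was lost with the muscle covariate (-0.57, adjusted p = 0.0579) and with the 5-week controls counted as 1 (adjusted p = 0.0556). Cers2, which takes the very long chains, rose by 0.30 (adjusted p = 0.0246) at 1 week and gave 0.12 at 5 weeks. Cers5 fell at 1 week, at -0.33 (adjusted p = 0.0111), as did Abcd2, at -0.47 (adjusted p = 0.00481). Without control arrays 2 and 3 the 1-week calls of Cers2, Cers5 and Abcd2 were lost, with adjusted p of 0.207, 0.143 and 0.105.

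Of 15 listed regulators of lipid synthesis and lipid sensing 14 were tested, with 6 up and 1 down at 1 week (42.9% and 7.14%, against 17.1% and 30.7% of all genes tested) and 4 up and 3 down at 5 weeks (28.6% and 21.4%, against 14.2% and 20.2%). The coactivators Ppargc1a and Ppargc1b rose by 1.64 (adjusted p = 3.56e-05 by limma) and 1.63 (adjusted p = 4.34e-05) at 1 week and by 1.79 (adjusted p = 2.91e-05) and 1.82 (adjusted p = 3.19e-05) at 5 weeks. Ppara, a nuclear receptor for fatty acids, rose by 2.09 (adjusted p = 0.00112) and 2.52 (adjusted p = 5.62e-04). Pparg, the adipocyte regulator, fell at 1 week, at -0.27 (adjusted p = 0.0131). Without control arrays 2 and 3 the 1-week calls of Ppara (1.27, adjusted p = 0.0691) and Pparg (-0.28, adjusted p = 0.115) were lost. At 5 weeks Srebf1 (-0.49, adjusted p = 0.0188), the oxysterol receptor Nr1h3 (-0.64, adjusted p = 0.00811) and its partner Rxra (-0.40, adjusted p = 0.0406) fell. Nr1h3 had risen at 1 week (0.53, adjusted p = 0.0156 by limma), and its cold effect differed between the times by -1.17 (adjusted p = 0.00704). The Rxra call was lost when any of the 6 arrays at 5 weeks was left out, and the Srebf1 call without control array 2 or 3 or cold array 1; with the Actb covariate the values of Nr1h3 and Ppara at 5 weeks were -0.20 (adjusted p = 0.744) and 1.09 (adjusted p = 0.346).

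**Figure D4:**
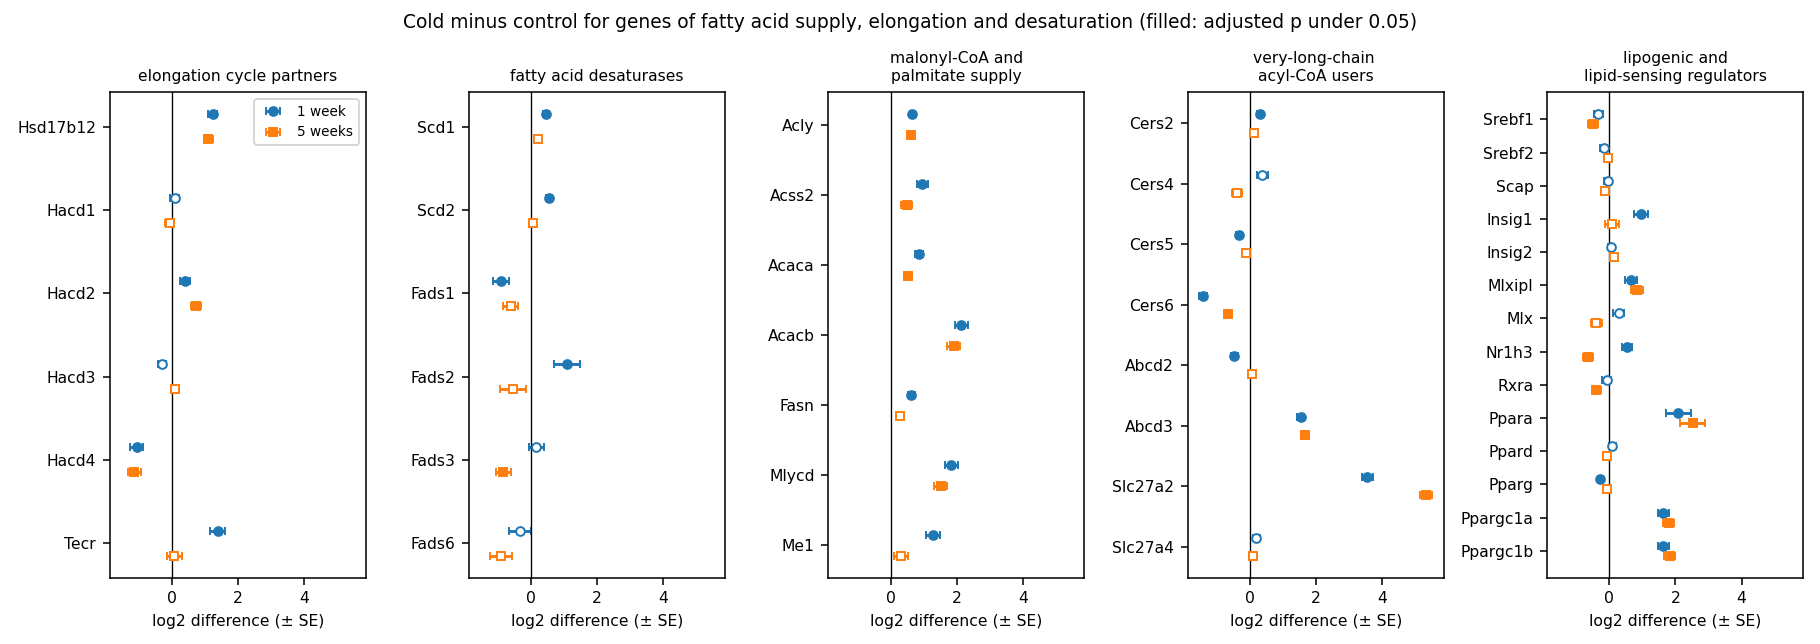
Log2 difference, cold minus control, with its SE for the tested genes of the 5 lists, 1 panel per list with genes on the y axis, at 1 week and 5 weeks. Filled symbols passed the adjusted p threshold of 0.05. The malonyl-CoA supply genes are all filled at 1 week, and 5 of 7 at 5 weeks; the 5-week point of Slc27a2 is the fitted difference from controls below log2 4, where only the bound of 4.42 is measured.

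Genes whose signal ran most like that of each member were ranked by Pearson's r of log2 signal over the 12 arrays, each gene on its brightest probe set. These arrays share 4 groups, so a gene that separates cold from control can rank high, and the values describe likeness only. For Elovl3 they were Pgk1 (0.989), Aspg (0.988), Khdrbs3 (0.988), Cox7a1 (0.988) and Kng1 (0.988), where Cox7a1 is a cytochrome oxidase subunit of muscle and brown fat. For Elovl6 1417404_at they were Gys2 (0.992), Slc25a35 (0.990), Mecr (0.989), Cyc1 (0.987) and Chchd10 (0.986), of which Mecr is the reductase of mitochondrial fatty acid synthesis. For Elovl5 1415840_at the closest were Gtf2h5 (0.978), Pex5 (0.977) and Decr2 (0.976), of which Pex5 imports peroxisomal enzymes and Decr2 is one of them. For Elovl1 1456530_x_at the closest were 1810030O07Rik (0.971), Specc1l (0.966) and Rpsa (0.964), and for Elovl7 Apbb1 (0.948). Between members, Elovl3 and Elovl6 1417404_at correlated at 0.951, Elovl3 and Elovl5 1415840_at at 0.736, and Elovl3 and Elovl1 1456530_x_at at -0.918.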

How the data were processed

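The authors deposited 1 table of log2 signals of 12 Affymetrix mouse arrays made with GCRMA, per the submitters' processing notes, from 5 µg of total RNA per array, per the labels' protocols. The GCRMA version was not given in the sources used here. Of 45101 probe sets, 34958 named 1 gene, 932 several and 9211 none in the platform annotation, and 34754 symbols were updated through the gene identifier. Elovl members and gene lists were chosen with earlier results of these data known. Groups were taken from the sample titles. Group means were fitted with limma 3.58.1 in R 4.3.3 (lmFit, eBayes) over all 12 arrays. There were 5 two-sided contrasts, each adjusted over 22378 probe sets. The procedure was tested on simulated data for cold against control at 1 week. It recovered 31.3% of changes of log2 0.5, 68.7% of log2 1 and 98.5% of log2 2, with 6 false calls. A missing call at the smaller sizes therefore does not show that there was no change. SD is over n = 3 arrays. SE is the moderated standard error of the limma fit, from a residual spread shared by the 4 groups of all 12 arrays. A gene of a list is its brightest tested probe set. Named are all members, all enzymes of the cycle and desaturase lists, up to 3 called rises and 3 falls per cold contrast of the other lists, and 5 genes of like pattern per member, of which the text prints the closest. Signals below log2 4 were set to 4 for bounds on folds. Scaling, filter, covariates, weights, block and left-out arrays were varied.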

Additional observations from a re-analysis of the deposited data

Results flagged for a closer look

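The cold effect of 1 probe set each of Elovl5 and Elovl1 differed between 5 weeks and 1 week in the test of that difference. For Elovl5 1415840_at it was smaller at 5 weeks by -0.46 (adjusted p = 0.0449 by limma), and every 1-week cold array was above every 5-week cold array. For Elovl1 1425676_a_at it was lower at 5 weeks by -1.05 (adjusted p = 0.0244 by limma); the 5-week controls were above and the 5-week cold arrays on the whole below the 1-week arrays, of which cold array 3 at 1 week lay inside the 5-week cold range. The other tested probe sets of the same 2 genes were not called for this difference. These 2 calls were among 10 tested probe sets, beside 20.3% of all tested probe sets called. Both were lost with the Gapdh, the Actb or the muscle covariate. With the muscle covariate 1 of the 10 was called, and it was higher. Leaving out 1 array lost the Elovl5 call for 8 of 12 arrays and the Elovl1 call for 4 of 12.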

How the results depend on the processing

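Over the single probe sets of members and named list genes, 1591 values under an alternative setting kept direction and side of the threshold, 173 kept direction and lost the call, 33 kept direction and gained one and 45 turned sign. The 1-week calls of Elovl3, of both Elovl5 probe sets and of Elovl6 1417403_at and 1417404_at, and the 5-week call of Elovl3, were kept under every setting run. For Elovl3, which passed the filter through its cold arrays, this is no independent evidence. The 3′ minus 5′ covariates, the muscle marker mean and the removal of doubted arrays cost the most calls. Each also leaves fewer degrees of freedom. The covariates also separated compared groups. At 1 week Gapdh was 0.90 to 3.12 in controls and -0.08 to 0.34 in the cold. At 5 weeks Actb was 1.04 to 1.16 in controls and 1.84 to 2.80 in the cold. The muscle mean was then 8.14 to 8.42 and 4.40 to 4.63. A call lost with such a covariate therefore cannot tell the covariate from the cold. The cause of the changes was not tested.

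At 1 week 8 of the member probe sets were called, 4 of 5 genes with 1 probe set per gene or with probe sets averaged, 5 with the Gapdh covariate and 8 to 9 with any array left out. At 5 weeks 7 were called, 3 with 1 probe set per gene, 4 with averaging, 1 with the Actb covariate, 2 with the muscle covariate, 2 with the 5-week controls counted as 1 and 5 to 7 with any array left out. For the change of the cold effect 2 were called: 1 after quantile normalization, centring, with 1 probe set per gene, the muscle covariate or the replicate block, 0 with either 3′ minus 5′ covariate, averaging, the 5-week controls as 1, or without control arrays 2 and 3 at 1 week (with or without cold array 3 at 5 weeks, an alternative chosen after seeing the data), and 0 to 5 with any array left out. Between the times in the cold 3 were called: 1 with 1 probe set per gene, averaging, the Gapdh covariate or all 3 doubted arrays out, 0 with Actb, 5 without the doubted control pair, and 1 to 5 with any array left out. In controls 0 were called, 2 with array weights and 0 to 1 with any array left out. With group means subtracted, control and cold arrays of the same number correlated at -0.08 to 0.09, and those of other numbers at -0.12 to 0.10. These values show no pairing by replicate number, but 3 arrays per group cannot exclude one. With the replicate block the counts were 8, 7, 1, 3 and 0. For the change of the cold effect, the 2 main calls and the 1 with the replicate block were lower. With the muscle covariate the 1 call was higher and 0 were lower, so both main calls were lost there.

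Of the values that turned sign, that of Scd2 with probe sets averaged was called (adjusted p = 0.0221 by limma). At 1 week Elovl1 1425676_a_at gave 0.14 (quantile), 0.12 (centred), 0.0018 (weights) and -0.11 to 0.071 with any array left out. Elovl7 gave -0.022 (quantile), -0.10 (Gapdh) and -0.18 (control pair out). Hacd1 gave -0.080 (control pair out, with or without cold array 3) and -0.030 to 0.18 with any array left out, Fads3 -0.39 (Gapdh) and -0.43 (control pair out), and Fads6 0.037 (Gapdh). At 5 weeks Elovl6 1442656_at gave 0.080 (quantile), 0.091 (centred), 0.0031 (weights), 0.079 (Gapdh) and -0.29 to 0.17 with any array left out. Hacd1 gave 0.11 (centred), 0.13 (muscle) and -0.16 to 0.013, and Hacd3 -0.074 (Gapdh), -0.26 (Actb), -0.079 (averaged) and -0.023 to 0.16, the lowest also with all 3 doubted arrays out. Tecr gave -0.10 to 0.34 with any array left out, Scd2 -1.63 (averaged), Fads1 0.16 (muscle), and Fads2 0.051 (Gapdh) and 0.34 (Actb). For the change of the cold effect, Elovl6 1417403_at gave 0.21 (Gapdh) and 1417404_at 0.24 (Gapdh), 0.15 (control pair out) and 0.18 (all 3 out). Elovl1 1455994_x_at gave -0.079 (Actb), 1456530_x_at -0.026 (Gapdh), -0.052 (Actb) and -0.18 (averaged), and Elovl7 -0.080 to 0.14 with any array left out. In the cold, 5 weeks minus 1 week, Elovl6 1417403_at gave 0.084 (Actb).

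Over the whole array 10235 probe sets were called at 1 week, 4332 with the Gapdh covariate and 4050 without the control pair. At 5 weeks 7395 were called, 1032 with Actb, 3501 with muscle and 2141 with the 5-week controls as 1. For the change of the cold effect the 4533 calls became 5 with Gapdh, 0 with Actb, 1355 with muscle, 282 without the control pair and 22 with the 5-week controls as 1. For 5 weeks against 1 week the 6352 calls in the cold became 3395 with Gapdh and 1 with Actb, and the 751 in controls became 3527 with array weights and 66 with Gapdh. With 1 probe set per gene the counts were 6361, 4655, 2551, 3534 and 328. Centring moved the share of called probe sets that were higher from 40.5% to 59.3% at 1 week and from 39.5% to 67.8% at 5 weeks. The median log2 difference of all tested probe sets was then 0.11 and 0.13.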

Other observations

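Other probe sets of the Scd genes gave another picture of the desaturases than the brightest ones. Scd2 1415824_at read 3.12, 2.63 and 2.29 in controls and 9.17, 6.68 and 11.05 in the cold at 1 week, and at 5 weeks 8.60, 8.62 and 7.99 in controls and 3.47, 6.97 and 2.20 in the cold. All 3 controls at 1 week and 2 of 3 cold arrays at 5 weeks were below log2 4. With these set to 4, the cold signal was at least 31.3-fold higher at 1 week (4.97 on the log2 scale) and at least 10.6-fold lower at 5 weeks (-3.41), beside log2 differences of 0.54 and 0.06 for the brightest Scd2 probe set, 1415822_at. The lowest arrays of 1415824_at were control arrays 2 and 3 at 1 week and cold array 3 at 5 weeks, the arrays with the highest Gapdh 3′ minus 5′ signal, and the part of that signal in the difference was not tested. Scd1 1415965_at gave 2.37 and -0.18 beside 0.45 and 0.21 for the brightest Scd1 probe set. These probe sets were singled out after their values were seen.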
